A study of Mus musculus with 8 samples.

Results

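The genes described are the STAT and interferon regulatory factor (IRF) transcription factors Stat2, Stat3, Irf1, Irf2, Irf3, Irf5, Irf7, Irf8 and Irf9, a list of 9 chosen by name. The list was drawn up with earlier results of these data known. Of these, 8 were among the 18088 genes of the count table, and Irf8 is not analysed here. The libraries are polyA RNA sequencing of adipocytes differentiated from 3T3-L1, an established mouse fibroblast line that turns into fat cells in culture. There were 4 siERK3 libraries, from cells given siRNA against ERK3, the atypical MAP kinase encoded by Mapk6, and 4 siNTC libraries, from cells given nontargeting siRNA. Both groups were wildtype cells, detached, transfected with 1.25 nM siRNA per cm2 and collected 48 h later. Each group received its own siRNA, so the target and any other property of that siRNA cannot be told apart. Neither the labels nor the methods say whether the replicates are separate cultures, so the p-values reflect a spread between libraries that may be technical.

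STAT proteins wait in the cytoplasm until a JAK kinase bound to a cytokine receptor phosphorylates them, after which they dimerize, enter the nucleus and bind DNA. Type I interferon leads to ISGF3, a complex that holds STAT2 and IRF9 and binds the interferon-stimulated response element (ISRE), whereas interferon gamma leads to binding at the gamma-activated site (GAS). IRF3 and IRF7 are activated downstream of nucleic acid sensors and drive interferon genes, IRF1 and IRF2 compete for related elements as an activator and mainly a repressor, and STAT3 carries signals of interleukin-6, leptin and related cytokines. Several of these factors are themselves interferon-induced genes, and fat cells carry interferon receptors.

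Depth was nearly equal, with 9887357 to 9943572 counts in siERK3 libraries and 9854522 to 9920350 in siNTC libraries. The targeted gene Mapk6 had 74.8, 71.6, 68.5 and 63.5 CPM (counts relative to library size, after TMM scaling) in siERK3 libraries, against 588, 572, 558 and 599 CPM in siNTC libraries, and its RNA was at 0.120 of the siNTC level (edgeR adjusted p = 2.09e-22). Most markers of the labelled cell type were abundant in both groups, but 16 of 18 adipocyte markers were lower in siERK3 and 1 was higher. Over all genes tested, 23.8% were lower and 24.9% higher. The summed level of the marker list was 25896 to 27208 CPM in siERK3 libraries and 44987 to 48512 CPM in siNTC libraries. Lpl alone averaged 6157 CPM in siERK3 and 11172 CPM in siNTC. In bulk RNA, fewer cells of a type and less RNA per cell cannot be told apart. Every pair of replicates differed by more than sampling noise.

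The stretch before a gene's start is where a STAT or IRF site would most often be sought, and these factors are partly one another's targets, so the promoter windows of the members were read. RefSeq windows of 300 bases (GRCm38.p6, the build that mm10 corresponds to), from 250 before to 50 after the start, were found for all 8 members, 10 windows in all. Both strands were searched for the ISRE core GAAANNGAAA and for the GAS core TTCNNNGAA, which can overlap each other. The 3 windows that held a match are printed with that of Irf7, the member with the greatest change and no match. Each is 5′ to 3′ on the gene's strand, and the capitals mark the matches.
Stat2, chr10:128270248-128270547, + strand: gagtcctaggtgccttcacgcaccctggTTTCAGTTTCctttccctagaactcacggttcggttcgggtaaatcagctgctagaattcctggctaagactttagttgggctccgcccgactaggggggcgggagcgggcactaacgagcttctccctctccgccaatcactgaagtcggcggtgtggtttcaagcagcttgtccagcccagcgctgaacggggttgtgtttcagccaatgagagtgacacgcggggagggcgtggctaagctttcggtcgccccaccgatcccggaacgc
Irf1, chr11:53769764-53770063, + strand: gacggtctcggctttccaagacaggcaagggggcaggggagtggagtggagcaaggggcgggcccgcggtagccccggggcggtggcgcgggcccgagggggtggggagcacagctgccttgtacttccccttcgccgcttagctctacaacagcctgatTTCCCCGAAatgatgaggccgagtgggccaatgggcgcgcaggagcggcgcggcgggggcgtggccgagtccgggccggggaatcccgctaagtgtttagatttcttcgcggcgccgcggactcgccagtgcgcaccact
Irf2, chr8:46739495-46739794, + strand: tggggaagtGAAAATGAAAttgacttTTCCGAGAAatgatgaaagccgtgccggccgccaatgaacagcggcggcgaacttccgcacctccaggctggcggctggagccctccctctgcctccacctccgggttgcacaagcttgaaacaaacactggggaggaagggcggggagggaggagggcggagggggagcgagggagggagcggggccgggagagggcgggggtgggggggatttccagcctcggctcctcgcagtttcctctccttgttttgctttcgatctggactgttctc
Irf7, chr7:141266375-141266674, - strand: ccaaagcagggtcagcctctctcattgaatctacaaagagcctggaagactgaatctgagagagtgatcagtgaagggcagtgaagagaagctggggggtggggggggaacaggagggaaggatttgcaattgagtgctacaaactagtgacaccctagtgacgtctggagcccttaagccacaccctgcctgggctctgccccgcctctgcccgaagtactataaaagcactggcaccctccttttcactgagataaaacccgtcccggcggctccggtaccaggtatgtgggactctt

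The Stat2 window held an ISRE core on the opposite strand, beginning 222 bases before the start (chr10:128270276-128270285). The first Irf1 window held a GAS core 90 bases before the start (chr11:53769924-53769932). In Irf2 an ISRE core and a GAS core stood close together, 241 and 224 bases before the start (chr8:46739504-46739513 and chr8:46739521-46739529). The other 7 windows held no match, which says only that these letters are not in those 300 bases. Starts here are RefSeq starts, which can differ from the gene positions given below. Both Irf9 windows (chr14:55603735-55604034 and chr14:55604329-55604628) lie inside the position of Irf9. The Irf1 window without a match (chr11:53770223-53770522) likewise lies inside that of Irf1. The stretch before the start of the Irf9 position was thus not searched. Of all 32851 mouse windows, 3.44% held the ISRE core and 8.30% the GAS core. Counted by gene, 2 of 8 members had each core, against 3.99% of 27025 genes for ISRE and 9.55% for GAS. A match is a description of the sequence and was not tested as a binding site.

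Most of the STAT and IRF genes were higher in siERK3 adipocytes, with a wide range of size. Irf7, Stat2, Irf9 and Irf1 were at least 2-fold higher, Irf2 and Stat3 were higher by smaller amounts, Irf3 was slightly lower, and Irf5 was not called. With edgeR's quasi-likelihood test and a Benjamini-Hochberg adjusted p under 0.05 over 17972 genes, 6 of 8 members were higher, where 24.9% of all genes tested were, and 1 was lower, where 23.8% of all genes tested were. The 2 groups did not overlap in CPM for 7 of 8 members, against 43.2% of all genes tested. The median log2 fold change of the 8 members was 0.95, and that of all genes tested was 0.00. Members and the gene lists used here were chosen with earlier results of these data known, so such counts are not independent support. All 8 members were above the filter on low counts in both groups, the lowest value being 6.56 CPM. Within a group the coefficient of variation of a member was 0.551% to 9.37% in siERK3 and 2.95% to 8.32% in siNTC.

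**Figure D1:**
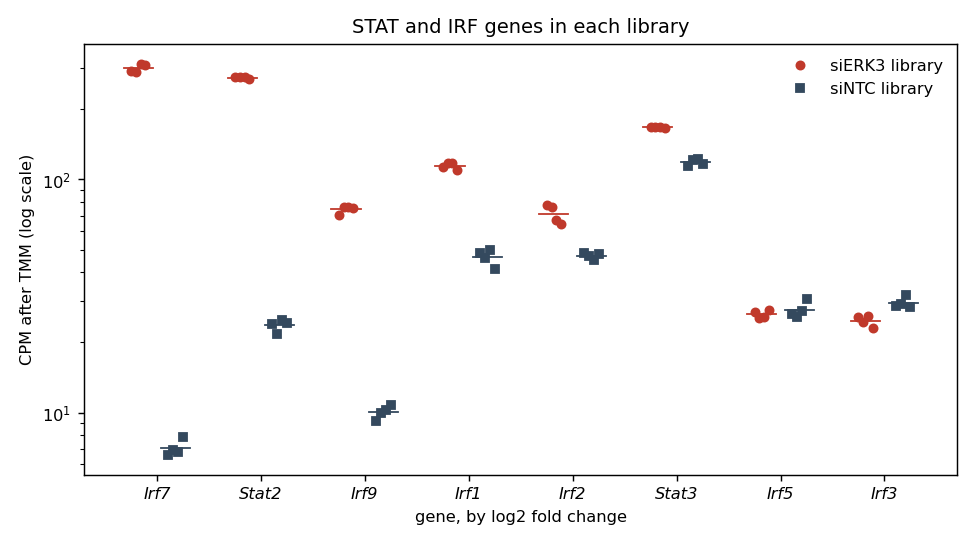
CPM of the 8 measured members on a log axis, 1 point per library and a line at each group mean, with 4 siERK3 libraries (circles) left of 4 siNTC libraries (squares). The groups are far apart for Irf7, Stat2, Irf9 and Irf1, closer but separate for Irf2, Stat3 and Irf3, and overlapping for Irf5.

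**Figure D2:**
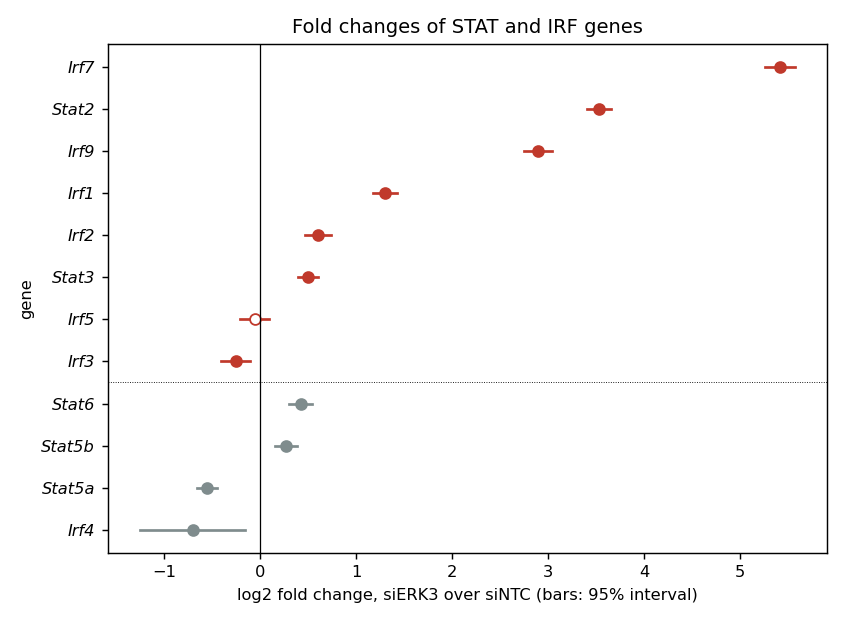
Log2 fold change of siERK3 over siNTC with its 95% interval, for the 8 members above the dotted line and 4 other STAT and IRF genes under it; filled points were called and open points were not. Irf7 stands highest at 5.41, and the interval of Irf5 includes 0.

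Stat2 and Irf9, which meet in ISGF3, were both higher in siERK3 adipocytes. Stat2, which brings the activation domain to the complex and lies at chr10:128270559-128292849 on the + strand, had 275, 274, 276 and 269.6 CPM in siERK3 libraries, against 24.0, 21.8, 24.8 and 24.2 CPM in siNTC libraries. The siERK3 libraries were nearly level with each other, and every one was far above every siNTC library. Stat2 averaged 273.5 ± 2.72 CPM in siERK3 and 23.7 ± 1.32 CPM in siNTC (SD, n = 4 each), an 11.5-fold difference with a 95% interval of 10.6 to 12.6 (log2 fold change 3.53, SE 0.06, edgeR adjusted p = 1.5e-23). By fold change it ranked 164th from the highest of 17972 genes.

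Irf9, the DNA-binding subunit that gives ISGF3 its preference for the ISRE, lies at chr14:55603571-55610030 on the + strand. It had 70.7, 76.0, 76.5 and 75.4 CPM in siERK3 libraries, against 9.17, 9.92, 10.2 and 10.7 CPM in siNTC libraries. No library of one group came near the other group. The means were 74.7 ± 2.66 CPM in siERK3 and 10.01 ± 0.655 CPM in siNTC (SD, n = 4 each), 7.45-fold apart with an interval of 6.73 to 8.25 (log2 fold change 2.90, SE 0.07, edgeR adjusted p = 3.0e-20). Irf9 shares 123 exon bases, 2.28% of its own, with the same-strand neighbor Rnf31, a ubiquitin ligase subunit that was also higher (log2 fold change 1.31, edgeR adjusted p = 1.67e-13, 55.8 CPM in siERK3 and 22.5 CPM in siNTC), so a part of the reads of either gene could be those of the other.

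Irf7 changed most of all members, while its paralog Irf3 moved slightly the other way. Irf7, the interferon-inducible factor that amplifies type I interferon, lies at chr7:141262706-141266481 on the - strand. It had 291, 288, 314 and 309.6 CPM in siERK3 libraries, from 2921 to 3228 counts, against 6.56, 6.92, 6.78 and 7.89 CPM in siNTC libraries, from 63 to 75 counts. Irf7 was thus scarce in every siNTC library and abundant in every siERK3 library. The means were 300.8 ± 13.0 CPM in siERK3 and 7.04 ± 0.586 CPM in siNTC (SD, n = 4 each), 42.7-fold apart with an interval of 38.4 to 47.4 (log2 fold change 5.41, SE 0.07, edgeR adjusted p = 5.63e-25). It ranked 89th from the highest of all genes tested. Irf7 shares 45 exon bases, 1.19% of its own, with Phrf1 on the opposite strand. Phrf1 was lower (log2 fold change -0.31, edgeR adjusted p = 0.000307), at 47.6 CPM in siERK3 and 59.0 CPM in siNTC.

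Irf3, which is made constitutively and activated by phosphorylation, lies at chr7:44997648-45002848 on the + strand. It had 25.8, 24.5, 25.9 and 23.0 CPM in siERK3 libraries, against 28.6, 29.3, 31.8 and 28.5 CPM in siNTC libraries. The groups did not overlap, but the gap between them was smaller than the range within either group. Irf3 averaged 24.8 ± 1.34 CPM in siERK3 and 29.6 ± 1.55 CPM in siNTC (SD, n = 4 each), and its log2 fold change was -0.25 (SE 0.07, 95% interval -0.40 to -0.10, edgeR adjusted p = 0.00541). The call was lost when libraries were scaled by total counts only (log2 fold change -0.17, edgeR adjusted p = 0.0643). Irf3 shares 88 exon bases with Bcl2l12 on the opposite strand, which the library kit does not set apart, and Bcl2l12 had the same log2 fold change of -0.25 (edgeR adjusted p = 0.0661).

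Irf1 and Irf2 were both higher in siERK3, Irf1 by more. Irf1, an activator of antigen presentation genes at chr11:53770014-53778374 on the + strand, had 113, 117, 118 and 109 CPM in siERK3 libraries, against 48.5, 46.1, 49.8 and 41.1 CPM in siNTC libraries. The lowest siERK3 library was above the highest siNTC library by more than the whole range of either group. Irf1 averaged 114.5 ± 4.03 CPM in siERK3 and 46.4 ± 3.83 CPM in siNTC (SD, n = 4 each), a 2.47-fold difference with an interval of 2.26 to 2.69 (log2 fold change 1.30, SE 0.06, edgeR adjusted p = 1.41e-14). The GAS core printed above stands in its first window. Irf1 shares 135 exon bases, 3.40% of its own, with Gm17334 on the opposite strand. Gm17334 was also higher (log2 fold change 1.36, edgeR adjusted p = 1.59e-05), at 4.04 CPM in siERK3 and 1.56 CPM in siNTC.

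Irf2, the competitor of Irf1 at chr8:46739732-46847458 on the + strand, had 77.6, 76.5, 66.9 and 64.4 CPM in siERK3 libraries, against 48.2, 46.8, 45.1 and 47.8 CPM in siNTC libraries. The siERK3 libraries fell into a higher and a lower pair, the widest relative spread of any member, and both pairs were above all siNTC libraries. The means were 71.3 ± 6.68 CPM in siERK3 and 47.0 ± 1.39 CPM in siNTC (SD, n = 4 each), 1.52-fold apart (95% interval 1.38 to 1.67, log2 fold change 0.60, SE 0.06, edgeR adjusted p = 4.9e-08).

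Stat3 was higher in siERK3 and its immediate neighbor Stat5a was lower. Stat3, the factor downstream of gp130 and leptin receptors, lies at chr11:100885098-100939540 on the - strand and had 167, 168.5, 168 and 167 CPM in siERK3 libraries, against 115, 122, 123 and 116 CPM in siNTC libraries. The siERK3 libraries varied by 0.551% (coefficient of variation), the smallest spread of any member, and lay above all siNTC libraries. Stat3 averaged 167.7 ± 0.924 CPM in siERK3 and 118.9 ± 3.92 CPM in siNTC (SD, n = 4 each), a 1.41-fold difference (95% interval 1.31 to 1.51, log2 fold change 0.50, SE 0.05, edgeR adjusted p = 1.41e-08). Stat5a, which carries growth hormone and prolactin signals and is used in fat cell differentiation, ends where Stat3 ends, on the opposite strand, and shares 72 exon bases with it. It had 72.8, 72.2, 73.5 and 75.1 CPM in siERK3 libraries, against 111, 105, 109 and 104 CPM in siNTC libraries, with a log2 fold change of -0.55 (edgeR adjusted p = 4.95e-09). The shared bases are 0.756% of the Stat3 exons and 1.01% of the Stat5a exons, and the 2 genes differed in opposite directions.

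Irf5, a factor downstream of Toll-like receptors that is best known from macrophages, was not called. It lies at chr6:29526625-29541871 on the + strand and had 27.1, 25.4, 25.7 and 27.5 CPM in siERK3 libraries, against 26.4, 25.7, 27.2 and 30.6 CPM in siNTC libraries. The groups overlapped, and the highest library was siNTC replicate 4. Irf5 averaged 26.4 ± 1.03 CPM in siERK3 and 27.5 ± 2.18 CPM in siNTC (SD, n = 4 each), and the 95% interval of the log2 fold change was -0.21 to 0.10, around an estimate of -0.06 (edgeR adjusted p = 0.55). The sign of this estimate turned when libraries were scaled by total counts only (0.03, edgeR adjusted p = 0.766). Irf5 shares 411 exon bases, 14.1% of its own, with Tnpo3 on the opposite strand, and Tnpo3, a nuclear import receptor, had 108.6 CPM in siERK3 and 120.9 CPM in siNTC (log2 fold change -0.16, edgeR adjusted p = 0.017), so the Irf5 count may hold reads of Tnpo3.

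Because longer transcripts give more reads, levels of different members were compared as CPM per kb of exon in GENCODE M21, the union of all annotated exons of a gene. In siERK3 the order ran Irf7 at 79.6, Stat2 at 46.1, Irf1 at 28.8, Stat3 at 17.6, Irf9 at 13.9, Irf2 at 9.65, Irf5 at 9.09 and Irf3 at 7.21 CPM per kb, and among neighbors in this order only Irf2 and Irf5 overlapped between libraries. In siNTC it ran Stat3 at 12.5, Irf1 at 11.7, Irf5 at 9.46, Irf3 at 8.59, Irf2 at 6.35, Stat2 at 4.00, Irf7 at 1.86 and Irf9 at 1.86 CPM per kb. Here the overlapping neighbors were Stat3 with Irf1, Irf1 with Irf5, Irf5 with Irf3, and Irf7 with Irf9. The members thus changed places: Irf7 and Stat2, low in siNTC, were the most abundant per length in siERK3.

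**Figure D3:**
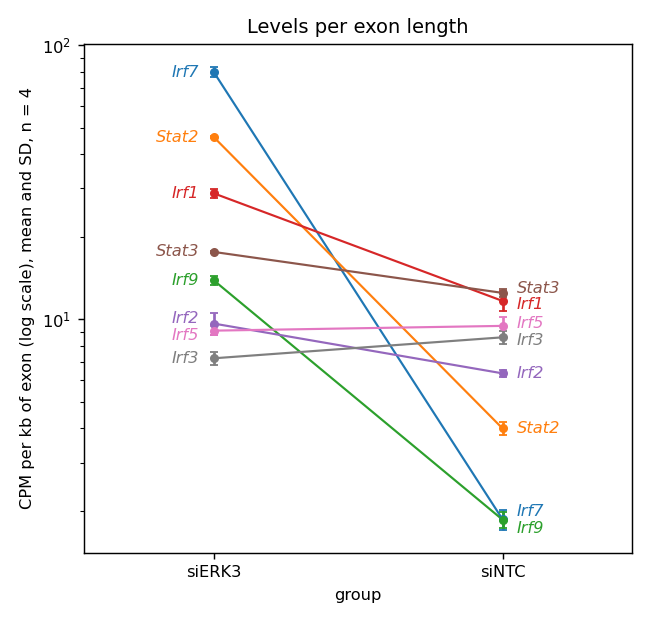
Mean CPM per kb of exon (log axis, bars are SD, n = 4) of each member in siERK3 on the left and in siNTC on the right, joined by a line per gene. The lines of Irf7, Stat2 and Irf9 cross those of several other members, while Irf5 and Irf3 are nearly flat.

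Ratios of counts between 2 members within a library do not depend on how libraries are scaled. They do depend on the exon lengths of the 2 genes, so equal counts are not equal levels per length. Stat2 had 3.58 to 3.88 counts per count of Irf9 in siERK3 libraries and 2.20 to 2.61 in siNTC libraries, so these subunits were not higher by the same factor. The ratio of Irf1 to Irf2 was 1.46 to 1.77 in siERK3 libraries and 0.861 to 1.10 in siNTC libraries. For Irf7 to Irf3 it was 11.3 to 13.4 in siERK3 and 0.213 to 0.277 in siNTC, and for Stat2 to Stat3 it was 1.62 to 1.64 in siERK3 and 0.179 to 0.209 in siNTC. None of these 4 ratios overlapped between the groups, and no test was run on them.

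**Figure D4:**
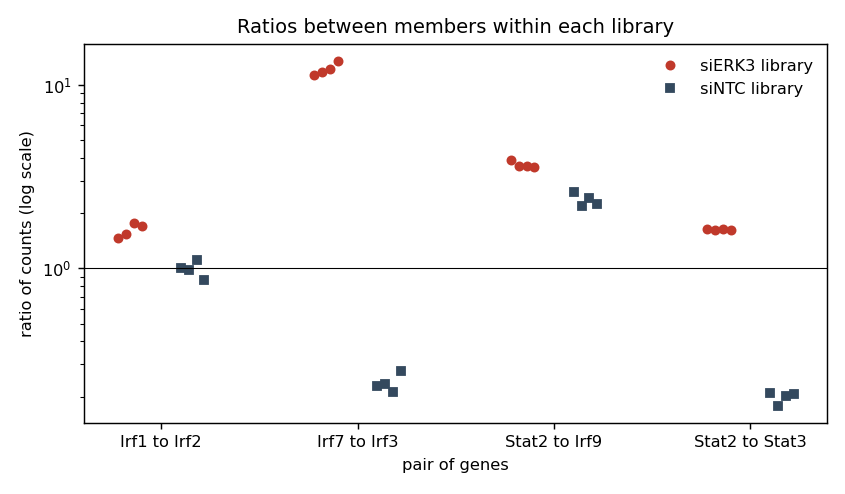
Ratio of the counts of 2 members in each library (log axis, line at 1), with 4 siERK3 libraries (circles) left of 4 siNTC libraries (squares). Each ratio is higher in every siERK3 library, and Irf7 to Irf3 and Stat2 to Stat3 lie on opposite sides of 1 in the 2 groups. The line at 1 marks equal counts, without regard to exon length.

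Other STAT and IRF family members, listed with the IRF2-binding proteins, held genes of either direction. Of 9 such genes tested, 3 were higher, where 24.9% of all genes tested were, 3 were lower, where 23.8% were, and 3 were not called, with a median log2 fold change of 0.04. Irf2bpl, an IRF2-binding protein gene, was higher, at a mean of 40.3 CPM in siERK3 and 17.4 CPM in siNTC (n = 4 each; log2 fold change 1.21, edgeR adjusted p = 1.33e-11). Stat6 of the interleukin-4 pathway was higher (0.42, edgeR adjusted p = 2.09e-06), as was Stat5b (0.27, edgeR adjusted p = 0.000343). Stat5a and the corepressor Irf2bp1 were lower (log2 fold change of Irf2bp1 -0.39, edgeR adjusted p = 0.000197). Irf4, which regulates lipolysis genes in mouse fat, was also lower, at 1.00 ± 0.205 CPM in siERK3 and 1.64 ± 0.149 CPM in siNTC (SD, n = 4 each; log2 fold change -0.70, edgeR adjusted p = 0.0298). At 8 to 17 counts per library the Irf4 call was fragile, being lost with DESeq2 (adjusted p = 0.117), with total-count scaling (adjusted p = 0.0571), and without siERK3 replicate 1 or 4 or siNTC replicate 1 or 2 (edgeR adjusted p of 0.0932, 0.0711, 0.0673 and 0.0645 in that order). Irf2bp2 (0.04) was not called, except with total-count scaling (0.13, adjusted p = 0.0382).

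Upstream of the STAT factors, most receptor and kinase genes were higher, all by less than 2-fold, with Jak2 just under it. Of 9 interferon receptor and JAK genes tested, 7 were higher, where 24.9% of all genes tested were, and 1 was lower, where 23.8% were. Of the 9, 1 was not called, and the median log2 fold change was 0.50. Jak2, the kinase of interferon gamma, gp130 and leptin receptors, was at 107 ± 2.84 CPM in siERK3 and 53.6 ± 6.68 CPM in siNTC (SD, n = 4 each, log2 fold change 0.995, edgeR adjusted p = 2.36e-11). Ifnar2 (0.87), Tyk2 (0.67) and Ifngr2 (0.66), named after their values were seen, were also higher (edgeR adjusted p = 1.47e-10, 4.25e-08 and 3.88e-07 in that order). Ifnar1, a subunit of the type I interferon receptor, was higher by 0.50 (edgeR adjusted p = 5.89e-08), and Jak1 by 0.18 (edgeR adjusted p = 0.00366), a call lost with upper-quartile factors (0.11, adjusted p = 0.0599). Ifngr1, a subunit of the interferon gamma receptor, was lower (log2 fold change -0.22, edgeR adjusted p = 0.00318), which total-count scaling did not keep as a call (-0.13, adjusted p = 0.0576). Jak3 was not called (log2 fold change -0.01). The interferon genes themselves are not analysed here.

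The inhibitors that close the JAK-STAT circuit were mostly higher, with 2 of them at least 2-fold. Of 17 tested, 12 were higher, where 24.9% of all genes tested were, and 1 was lower, where 23.8% were. The other 4 were not called, and the median was 0.23. Usp18, a protease that removes ISG15 and blocks the type I interferon receptor, had the largest difference of this list, with 187.6 ± 3.93 CPM in siERK3 and 3.62 ± 0.413 CPM in siNTC (SD, n = 4 each; log2 fold change 5.69, edgeR adjusted p = 6.41e-25). The other was Socs1, an inhibitor of JAK kinases named after its values were seen, with 11.6 ± 1.88 CPM in siERK3 and 1.69 ± 0.354 CPM in siNTC (SD, n = 4 each; log2 fold change 2.76, edgeR adjusted p = 5.37e-12). Socs5 was higher by 0.23 (edgeR adjusted p = 0.0014). The call of Cish (0.14, edgeR adjusted p = 0.0405) was lost with upper-quartile factors and DESeq2 (adjusted p = 0.312 and 0.0758), and without siERK3 replicate 2, 3 or 4 or siNTC replicate 2 or 4 (edgeR adjusted p of 0.133, 0.0755, 0.052, 0.121 and 0.0575 in that order). Socs4 was lower (-0.25, edgeR adjusted p = 0.0308), a call lost with total-count scaling (adjusted p = 0.162) and without siERK3 replicate 1, 2 or 3 or siNTC replicate 1 or 2 (edgeR adjusted p of 0.0914, 0.0694, 0.0842, 0.0797 and 0.17 in that order), when the count of lower genes was 0. Ptpn11 (0.08) and Pias4 (-0.01) were not called, although Ptpn11 was with total-count scaling (0.17, adjusted p = 0.0101).

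Of the sensors, adaptors and kinases that activate IRF3 and IRF7, 16 were tested. Of these, 12 were higher, where 24.9% of all genes tested were, and 2 were lower, where 23.8% were. The other 2 were not called, and the median was 0.71. At least 2-fold higher were 5 genes. Among them Ddx58, the RNA sensor RIG-I, was at 314 ± 7.87 CPM in siERK3 and 18.6 ± 1.92 CPM in siNTC (SD, n = 4 each, log2 fold change 4.08, edgeR adjusted p = 1.15e-23). The others were Dhx58 (5.68), Ifih1 (4.17), Tlr3 (2.79) and Tmem173 (2.13), named after their values were seen. Tlr4, the lipopolysaccharide receptor, was higher by 0.65 (edgeR adjusted p = 4.11e-07), and the kinase Irak4 by 0.30 (edgeR adjusted p = 0.000209). Mavs, the mitochondrial adaptor that RIG-I signals through, was lower (-0.31, edgeR adjusted p = 0.000141), so sensor and adaptor differed in opposite directions. Irak1 was lower as well (-0.18, edgeR adjusted p = 0.017), a call lost with total-count scaling (adjusted p = 0.208) and without siERK3 replicate 1 (edgeR adjusted p = 0.0624), which left 1 lower gene in the list. Ticam1, the adaptor TRIF (-0.21, edgeR adjusted p = 0.0536), and Mb21d1, the DNA sensor cGAS (0.56, edgeR adjusted p = 0.109), were not called. Ticam1 passed with upper-quartile factors (adjusted p = 0.0111), limma-voom (adjusted p = 0.0477), the likelihood-ratio test (adjusted p = 0.048) and a filter at 5 CPM (adjusted p = 0.0437), and without siERK3 replicate 2 (-0.30, edgeR adjusted p = 0.0067) or siNTC replicate 4 (-0.24, edgeR adjusted p = 0.0467). Mb21d1 passed without siNTC replicate 2 (0.98, edgeR adjusted p = 0.00631).

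Genes known as targets of ISGF3, IRF1 and GAS sites were nearly all higher, many by large amounts. Over all genes tested, 24.9% were higher. Both target lists were chosen with earlier results of these data known, so the counts are not independent support. Of 22 ISGF3 targets, 21 were higher and 1 was lower, with a median log2 fold change of 8.18. For the 2 genes with no count in any siNTC library, a floor of 3 counts, summed over the siNTC libraries, was also used. Both genes lie above the median either way, so the floor could not move it. The summed level of the list was 5916 to 6200 CPM in siERK3 libraries and 326 to 374 CPM in siNTC libraries. Most of the siNTC sum was Ifi27, at a mean of 284 CPM, so that sum says little about the other targets. Ifit3, an antiviral protein that binds other IFIT proteins, averaged 939 ± 17.5 CPM in siERK3 and 2.76 ± 0.509 CPM in siNTC (SD, n = 4 each; log2 fold change 8.40, edgeR adjusted p = 9.64e-27). Its close copy Ifit3b was higher by 7.94 (edgeR adjusted p = 9.64e-27), and reads could be divided between these 2 genes, while Bst2, which tethers budding virus, was higher by 6.48 (edgeR adjusted p = 2.36e-26). Ifi27 was the gene that went the other way, at 135 ± 7.40 CPM in siERK3 and 284 ± 17.4 CPM in siNTC (SD, n = 4 each; log2 fold change -1.07, edgeR adjusted p = 1.67e-13). Of the targets with a promoter window, 9 of 17 held the ISRE core and 5 of 17 the GAS core. Over all genes with a window, 3.99% held the ISRE core and 9.55% the GAS core. The genes were listed as known targets, so these shares are not separate support.

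All 19 tested targets of IRF1 and GAS sites, most of them antigen presentation and guanylate-binding genes, were higher, with a median of 3.60. B2m, the light chain of MHC class I, averaged 2150 ± 148 CPM in siERK3 and 414 ± 27.2 CPM in siNTC (SD, n = 4 each; log2 fold change 2.38, edgeR adjusted p = 1.05e-19). The peptide transporter gene Tap1 was higher by 3.60 (edgeR adjusted p = 7.64e-23) and its partner Tapbp by 1.76 (edgeR adjusted p = 1.75e-18). In this list 8 of 16 genes with a window held the ISRE core and 4 of 16 the GAS core, against 3.99% and 9.55% of all genes. These genes too were listed as known targets. The list names both kinds of site, and single genes often answer to ISGF3 as well as to IRF1.

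The receptors and targets of the STAT3 pathway went in both directions, more of them higher. Of 20 tested, 14 were higher, where 24.9% of all genes tested were, and 4 were lower, where 23.8% were. The other 2 were not called, and the median was 0.67. The 4 lower genes all differed by less than 2-fold, and 8 of the 14 were at least 2-fold higher. Some of these 8 averaged under 5 CPM in both groups, and 10 genes of the list were higher with a filter at 5 CPM. Among the 8 were the oncostatin M receptor gene Osmr (1.85, edgeR adjusted p = 7.29e-17) and Junb, which encodes an AP-1 subunit (1.96, edgeR adjusted p = 8e-16), both chosen after their values were seen. Il6st, which encodes gp130, was higher by 0.45 (edgeR adjusted p = 1.51e-07), the survival gene Mcl1 by 0.42 (edgeR adjusted p = 1e-06), and Cebpb, a regulator of fat cell differentiation, by 0.66 (edgeR adjusted p = 9.34e-06), although Cebpb varied widely in siERK3, at 147 ± 36.1 CPM, beside 92.7 ± 2.09 CPM in siNTC (SD, n = 4 each). The acute-phase gene Hp (-0.64, edgeR adjusted p = 3.42e-09) and the repressor Bcl6 (-0.64, edgeR adjusted p = 9.09e-09) were lower. So was Il11ra1 (-0.18, edgeR adjusted p = 0.00741), a call lost with total-count scaling (-0.09, adjusted p = 0.151), when 2 genes of the list were lower. Myc (-0.01) and Lepr (-0.52, edgeR adjusted p = 0.0888) were not called. Lepr passed without siERK3 replicate 2 (-0.69, edgeR adjusted p = 0.0429) or siNTC replicate 1 (-0.65, edgeR adjusted p = 0.038), and was at -0.34 without siERK3 replicate 3.

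**Figure D5:**
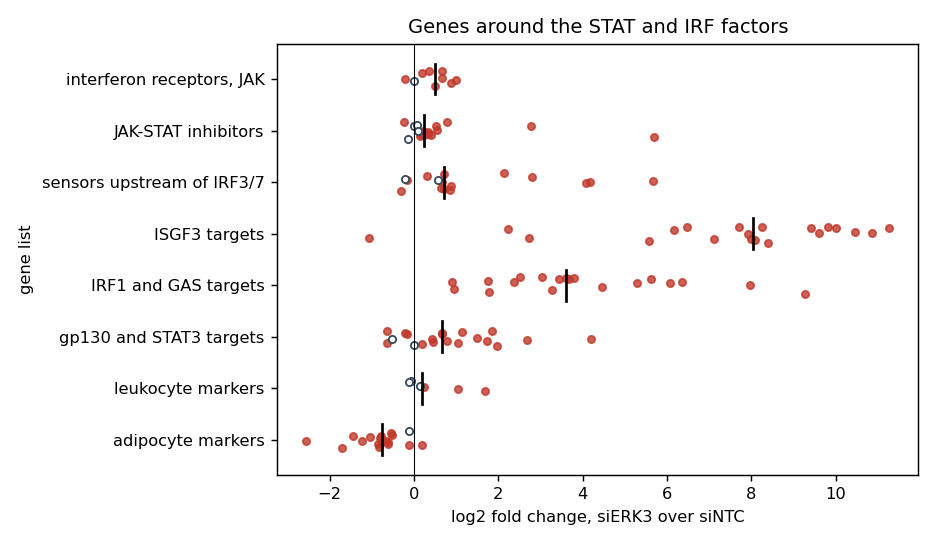
Log2 fold change of siERK3 over siNTC for each tested gene of 8 lists, 1 point per gene (filled where called, open where not) and a bar at the median of the genes drawn; the 2 ISGF3 targets with no count in siNTC are left out. Targets of ISGF3, IRF1 and GAS sites lie far to the right, receptors and most inhibitors closer to 0, genes of the STAT3 pathway on both sides of 0 with the larger differences to the right, and adipocyte markers mostly to the left.

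Since Irf5 and Irf7 are abundant in immune cells, leukocyte markers were read beside them. Of 20 such symbols, 6 were tested, of which 3 were higher, where 24.9% of all genes tested were, and 3 were not called. The summed level of these 6 was 91.7 to 98.4 CPM in siERK3 libraries and 70.5 to 76.3 CPM in siNTC libraries. Most of that sum was Cx3cr1, at 67.6 ± 1.37 CPM in siERK3 and 57.0 ± 3.15 CPM in siNTC (SD, n = 4 each; log2 fold change 0.25, edgeR adjusted p = 0.000796). Cd14 was higher by 1.69 (edgeR adjusted p = 4.66e-10) and Cd68 by 1.05 at 1.74 CPM in siERK3 and 0.834 CPM in siNTC (edgeR adjusted p = 0.00426). Csf1r and Itgax were not called. The other 14, among them Ptprc, Adgre1, Itgam, Lyz2 and Spi1, were not analysed here. The labelled cells are a cultured line derived from fibroblasts, and the source of this marker RNA was not tested. Of 9 preadipocyte markers, 8 were lower, where 23.8% of all genes tested were, and the median log2 fold change of the list was -0.87. They ran from Dlk1, at 7.71 ± 0.729 CPM in siERK3 and 51.1 ± 3.12 CPM in siNTC (SD, n = 4 each; -2.73, edgeR adjusted p = 3.56e-18), to Col3a1 (-0.30, edgeR adjusted p = 4.57e-05), and 1 was higher, the surface antigen gene Ly6a (6.46, edgeR adjusted p = 2.65e-25), which is also interferon-inducible. The 1 endothelial marker tested, Pecam1, was not called (edgeR adjusted p = 0.13).

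Among adipocyte markers, those named by abundance were Lpl (-0.86), Fabp4 (-0.67) and Adipoq (-0.83), each lower in siERK3 (edgeR adjusted p = 1.28e-10, 3.41e-10 and 8.97e-12 in that order). Cd36, the fatty acid transporter, was the marker called higher (0.19, edgeR adjusted p = 0.0223), a call lost with upper-quartile factors (adjusted p = 0.142) and without siERK3 replicate 2 or 4 or siNTC replicate 3 (edgeR adjusted p of 0.0603, 0.0783 and 0.0822 in that order). The perilipin gene Plin4 was just outside the threshold (-0.12, edgeR adjusted p = 0.0598). It passed with RLE factors (adjusted p = 0.0488), upper-quartile factors (adjusted p = 0.00419), DESeq2 (adjusted p = 0.0206), limma-voom (adjusted p = 0.0225) and a filter at 5 CPM (adjusted p = 0.0451), and without siERK3 replicate 3 or siNTC replicate 2 (edgeR adjusted p of 0.0332 and 0.0471 in that order).

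Last, each member was set beside the genes with the most similar profile over the 8 libraries, as the root mean square difference of log2 CPM after each of 17803 genes was centered on its own mean. Nearest to Stat2 was Gbp2, a guanylate-binding protein gene (difference 0.0709 log2 units), and nearest to Irf7 was Ifitm3, an antiviral membrane protein gene (0.129), followed by Xaf1 (0.143). For Irf9 they were A930015D03Rik (0.08) and Xdh, which encodes xanthine dehydrogenase (0.0848), and for Irf1 they were Rnf31 (0.0603), the neighbor of Irf9, and Rnf114 (0.063). Nearest to Stat3 was Keap1 (0.027), to Irf2 Pdzrn3 (0.0411), to Irf3 Anks1 (0.023) and to Irf5 Ltv1 (0.0363). These are descriptions of profiles over 2 groups of 4 libraries.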

How the data were processed

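For 8 libraries the authors deposited unnormalized gene counts. Per the labels and methods they were made with the tools bcl2fastq, FastQC, Bowtie2 and edgeR on mm10; the counting program, annotation and strand setting are not given in the sources used here, and the kit does not mark strand. A second deposited table holds the authors' own fold changes and p-values and was not used.

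The deposited counts were filtered by the default rule of filterByExpr (minimum count 10, minimum total 15) and tested in edgeR 4.0.16 under R 4.3.3, using TMM factors and the quasi-likelihood test of siERK3 over siNTC with no covariate, since the methods name edgeR but no test. Of 18088 genes, 17972 were tested, and a gene was called where its p after Benjamini-Hochberg adjustment was under 0.05. The common dispersion of edgeR corresponded to a coefficient of variation of 6.08%. Alternatives were other scalings and filters, DESeq2 1.42.0, limma-voom (limma 3.58.1), the likelihood-ratio test, a replicate block, a 2-fold threshold and leaving out each library. Totals of 9854522 to 9943572 counts per library limit precision; the floor allows for counting error alone, as the reads carry no molecular identifiers.

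Exon lengths, positions and overlaps are from GENCODE M21 (mm10), which held 18050 of the 18088 gene IDs, and 452 rows had no symbol. Members and lists were chosen with earlier results of these data known. Named genes are all members, Mapk6, the 3 called genes of highest mean CPM in each direction and the 2 such uncalled genes of each list, and the 2 genes nearest each member in profile. Some are left out. Rnf31, Bcl2l12, Tnpo3, Gm17334 and Phrf1 were added as overlapping genes. Socs1, Osmr, Junb, Dhx58, Ifih1, Tlr3, Tmem173, Ifnar2, Tyk2 and Ifngr2 were added after their values were seen. Some family members are not reported here.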

Additional observations from a re-analysis of the deposited data

Results flagged for a closer look

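In 6 of 138 groups of 4 values for members, named genes and ratios, 1 library lay far from the other 3, its gap to the nearest, as a share of the range, exceeding Dixon's 95% critical value. About 1 group in 20, here 6.9, would do so by chance. Among the members' own values, this was the ratio of Stat2 to Irf9 counts in siERK3 replicate 1, which was 3.88 where the other siERK3 libraries were at 3.58 to 3.61, still above every siNTC library. Jak1 was at 205.7 CPM in siERK3 replicate 4, where the others were at 192 to 194 CPM, and Lpl was at 6805 CPM in the same library, where the others were at 5893 to 5989 CPM. In siERK3 replicate 1, Irak1 was at 41.9 CPM, where the others were at 45.4 to 45.8 CPM, and Mb21d1 at 2.51 CPM, where the others were at 1.88 to 1.98 CPM. Dlk1 was at 55.7 CPM in siNTC replicate 3, where the other siNTC libraries were at 48.9 to 49.97 CPM. No CPM value of a member was flagged in this way.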

How the results depend on the processing

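Across 9 alternative scalings, filters, tools and models and the leaving out of each library, Stat2, Stat3, Irf1, Irf2, Irf7, Irf9 and Mapk6 kept their direction and their call. With scaling by total counts only, Irf3 was no longer called (-0.17), so that 0 members were lower, and Irf5 turned sign (0.030); this scaling moved the median of all genes by 0.09 and upper-quartile scaling by -0.07. At a 2-fold threshold 738 genes were higher and 409 lower, with 4 members higher and 0 lower. Leaving out a library gave 4117 to 4350 genes higher and 3839 to 4131 lower, 6 members higher and 1 lower each time, and an adjusted p for Irf3 of 0.00724 to 0.0231. Uncalled genes near 0 turned sign, namely Irf2bp2 (-0.029 with upper-quartile factors) and, with total-count scaling, Jak3 (0.081), Pias4 (0.079), Myc (0.079) and Csf1r (0.011). Without single libraries Jak3 ran between -0.041 and 0.029, Pias4 between -0.066 and 0.043, Myc between -0.040 and 0.026 and Csf1r between -0.15 and 0.087. The cause of these shifts was not tested.

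Same-numbered libraries hardly deviated together (r of 0.008, 0.001, 0.046 and -0.017 over 17811 genes). These values gave no sign of pairing by number, but they cannot show how the samples were prepared. With a replicate block 4501 genes were higher and 4292 lower, and 6 members were higher and 1 lower. The block also brought Ticam1 (adjusted p = 0.0427) and Plin4 (adjusted p = 0.039) past the threshold. Low counts limit Irf4, Mb21d1, Lepr, Cd68 and Pecam1.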
